A study of Mus musculus with 8 samples.

Results

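Of the 9182 H3K79me2 peaks called on chromosomes 1 to 19 in EPZ5676-treated mouse spermatogonial stem cells, 1648 lay inside protein-coding genes and shared no base with any of the 47774 peaks of the control list. These inhibitor-only genic peaks were chosen by their positions in both lists and in the RefSeq gene table of GRCm38, so the absence of a control peak at each of them is the rule and not a result. They made up 17.9% of the autosomal EPZ5676 peaks. The inhibitor-only peaks as a whole numbered 4063, or 44.2%, and the 1648 were 40.6% of these (exact 95% interval 39 to 42.1%). Of the 1648, 1631 overlapped a single gene and 1643 lay wholly inside one. They fell in 792 genes, 469 of which had no control peak anywhere in the span and 323 of which had at least 1 elsewhere in the span. The first class held 703 of the peaks and the second 945.

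H3K79me2 is placed on the globular part of histone H3 by DOT1L, the only well-established methyltransferase for this residue in mammals. The mark is known for covering the transcribed region of active genes, usually strongest downstream of the start. EPZ5676 (pinometostat) competes with the methyl donor of DOT1L.

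The series asks about DOT1L in germline stem cells. Testis cells of 7-day-old ROSA mice, strain B6.129S7-Gt(ROSA)26Sor/J with a LacZ reporter, had been kept for 2 months on SNL 76/7 feeders, a mouse fibroblast line, in serum-free medium with GDNF at 10 ng/mL and FGF2 at 0.5 ng/mL. The cells then received 2 µM EPZ5676 or vehicle for 7 days. The protocols name DMSO as vehicle while the descriptions of the control samples name EtOH. The 8 samples form 4 groups of 2, H3K79me2 and input for each condition, but each condition is represented by 1 peak list, so no value below has a replicate error and none was tested between conditions. No step is named that removed feeder cells before fixation, and the labels do not say that replicates were separate cultures. Read depth is unknown. Exact Clopper-Pearson 95% intervals on shares cover the sampling of peaks or genes only, and neighbouring peaks are not independent.

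Few EPZ5676 peaks in protein-coding genes reached a promoter, and 2 of the inhibitor-only genic peaks did. Peaks outside these genes were not counted. The RefSeq table used gives promoter windows, from 250 bases before to 50 after a start, for 16457 of the 20665 autosomal protein-coding genes, so the count covers the 1220 peaks in a gene with a window. The 2 are 0.164% of these (interval 0.0199 to 0.591%). The share was 10 of 4000 (0.250%, interval 0.120 to 0.459%) for EPZ5676 peaks that overlapped a control peak and 1818 of 33484 (5.43%) for control peaks, over all genes with a window. In the genes that hold an inhibitor-only peak, which are longer, it was 0 of 667 (upper bound 0.552%) and 11 of 2666 (0.413%, interval 0.206 to 0.737%), and these intervals overlap that of the inhibitor-only peaks. The 2 windows belong to Hba-x, an embryonic alpha-like globin gene, and Lce3c, which encodes a late cornified envelope protein of the epidermis. They are printed because they are the only ones reached, with the bases under the peak in capitals. Each run starts 250 bases before the start and ends 30 after it, on the gene's strand, from RefSeq GRCm38.p6.
Hba-x: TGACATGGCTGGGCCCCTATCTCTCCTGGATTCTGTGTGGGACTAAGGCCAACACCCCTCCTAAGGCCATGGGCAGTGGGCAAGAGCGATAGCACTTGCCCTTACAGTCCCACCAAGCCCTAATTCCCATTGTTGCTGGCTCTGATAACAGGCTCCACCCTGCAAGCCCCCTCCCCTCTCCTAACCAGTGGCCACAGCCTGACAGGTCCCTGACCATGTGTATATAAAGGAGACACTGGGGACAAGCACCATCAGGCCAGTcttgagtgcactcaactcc
Lce3c: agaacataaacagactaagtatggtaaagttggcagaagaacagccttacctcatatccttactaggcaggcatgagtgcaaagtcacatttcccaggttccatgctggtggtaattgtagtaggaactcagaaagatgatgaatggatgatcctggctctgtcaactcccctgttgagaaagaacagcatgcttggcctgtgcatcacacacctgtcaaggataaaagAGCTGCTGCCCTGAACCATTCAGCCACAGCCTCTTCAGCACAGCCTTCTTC
The Hba-x window is chr11:32276350-32276649 on the plus strand, and its peak, chr11:32276309-32276610, covered bases 1 to 261 of the 300. This peak was 302 bp wide with a fold enrichment of 2.71. The sequence has TATAAA starting at position -28 relative to the start. The whole window of 300 bases has a GC content of 57.3% and 2 CG dinucleotides, of which 1 is in the printed stretch. The Lce3c window is chr3:92944236-92944535 on the plus strand, and the peak, chr3:92944465-92944939, covered its last 71 bases, 230 to 300. That peak was 475 bp wide with a fold of 2.79, and the window holds no CG and no TATAAA, with a GC content of 47%. Neither gene has a control peak, and the nearest one lay 7727 bp from the Hba-x window and 577340 bp from the Lce3c window. Over all 32851 windows in the table, TATAAA on the gene's strand occurs in 8.32% and GGGCGG on either strand in 35.7%. The class shares that follow cover only the 16457 autosomal protein-coding genes with a window, so that total is no background for them. In the 359 genes with an inhibitor-only peak and no control peak, the shares were 7.24% and 30.9%. Other genes without a control peak had 16.2% and 22.9%. With a control peak, the shares were 4.98% and 55.2% in genes holding an inhibitor-only peak and 3.60% and 67.3% in other genes. Neither window above holds GGGCGG.

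The next closest to a start were peaks 92 bp from the start of 4931408C20Rik, 100 bp from that of Cma1 (mast cell chymase), 149 bp from Olfr654 and 151 bp from Olfr6 (odorant receptors), 151 bp from Ifit1bl1 (an interferon-induced Ifit family gene), and 172 bp from Gm21663 and from Sprr2a2 (a cornified envelope gene). None of these genes has a control peak. In the order named, the peaks had folds of 1.58, 2.30, 2.97, 2.87, 2.49, 3.05 and 2.35. The first is the lowest fold of the 1648 peaks, whose lower quartile was 2.67. No miRNA hairpin in the RefSeq table overlapped an inhibitor-only genic peak, and 2 peaks lay within 1 kb of one.

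Promoter composition differed between the gene classes. The median number of CG dinucleotides per window was 7 in 359 genes holding an inhibitor-only peak and no control peak, and 15 in 241 holding both. In the other genes it was 4 without a control peak (7049 windows) and 22 with one (8808 windows). Within the classes single genes varied widely. Cacnb2, the gene without a control peak with the longest total inhibitor-only length, and Maml2, its counterpart among genes with a control peak, differ in the direction opposite to the class medians. The printed stretch, of the same extent as above, has CG dinucleotides in capitals.
Cacnb2: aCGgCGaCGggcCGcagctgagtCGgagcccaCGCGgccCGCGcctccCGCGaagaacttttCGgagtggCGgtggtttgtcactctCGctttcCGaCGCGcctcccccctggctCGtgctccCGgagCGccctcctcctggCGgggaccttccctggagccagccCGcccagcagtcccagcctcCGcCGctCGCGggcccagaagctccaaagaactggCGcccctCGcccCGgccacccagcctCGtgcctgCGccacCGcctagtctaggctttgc
Maml2: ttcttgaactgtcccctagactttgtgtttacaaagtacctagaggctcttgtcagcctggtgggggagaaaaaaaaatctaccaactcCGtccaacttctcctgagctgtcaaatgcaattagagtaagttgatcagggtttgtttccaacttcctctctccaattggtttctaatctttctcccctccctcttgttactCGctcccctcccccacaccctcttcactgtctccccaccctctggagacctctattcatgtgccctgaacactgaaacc
The Cacnb2 window, chr2:14604056-14604355 on the plus strand, has a GC content of 71.7% and 35 CG dinucleotides in its 300 bases. The Maml2 window, chr9:13297708-13298007 on the plus strand, has 48% and 2. No peak of either list covered these windows. The nearest control peak was 397155 bp from the first and 3791 bp from the second.

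The peaks themselves were short and of modest enrichment. Their median width was 350 bp (quartiles 233 and 488, range 147 to 1882). It was 341 bp in genes without a control peak, 359 bp in genes with one, 342 bp for the 2415 inhibitor-only peaks outside protein-coding genes, and 460 bp for the 5000 EPZ5676 genic peaks that overlapped a control peak. A wider peak is more likely to meet a control peak, so part of the last difference is set by the rule. Peaks of at least 1000 bp were 32 of 1648 (1.94%) and 690 of 5000 (13.8%), respectively. The fold enrichment that the authors give for each peak had a median of 2.74 (range 1.58 to 3.77), against 2.77 in the overlapping genic peaks. The commonest value, 2.66, was shared to the last deposited digit by 74 of the 1648 peaks (4.49%) and by 266 of all 9182 (2.90%). The −log10 q had a median of 1.39 and a highest value of 4.14. It reached 2 in 97 peaks (5.89%, interval 4.80 to 7.13%), against 402 of 5000 overlapping genic peaks (8.04%, interval 7.30 to 8.83%).

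Where genes had no control peak, inhibitor-only peaks lay far from any. The median gap to the nearest control peak was 61478.5 bp over all 1648. In genes without a control peak it was 193146 bp, and in genes with one 9248 bp, a split that the definition of the classes largely sets. The gap was at most 1000 bp for 199 peaks (12.1%), all in genes with a control peak. Their neighbours in the EPZ5676 list were also distant in the first class, at a median gap of 78222 bp, against 8946 bp in the second, 3050.5 bp for overlapping genic peaks and 70240 bp for inhibitor-only peaks outside genes. The closest to failing the rule were peaks in Bcat1, 3 bp from a control peak, in Rin3 at 4 bp and in Plxdc2 and Htr2a at 8 bp. Just outside it were peaks in Zfp9 and Stard13 with 1 base under a control peak and in Ebf1 with 6. These had folds of 3.12, 2.76, 2.67 and 2.65 inside and 2.66, 3.00 and 2.76 outside, ranges that overlap.

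**Figure D1:**
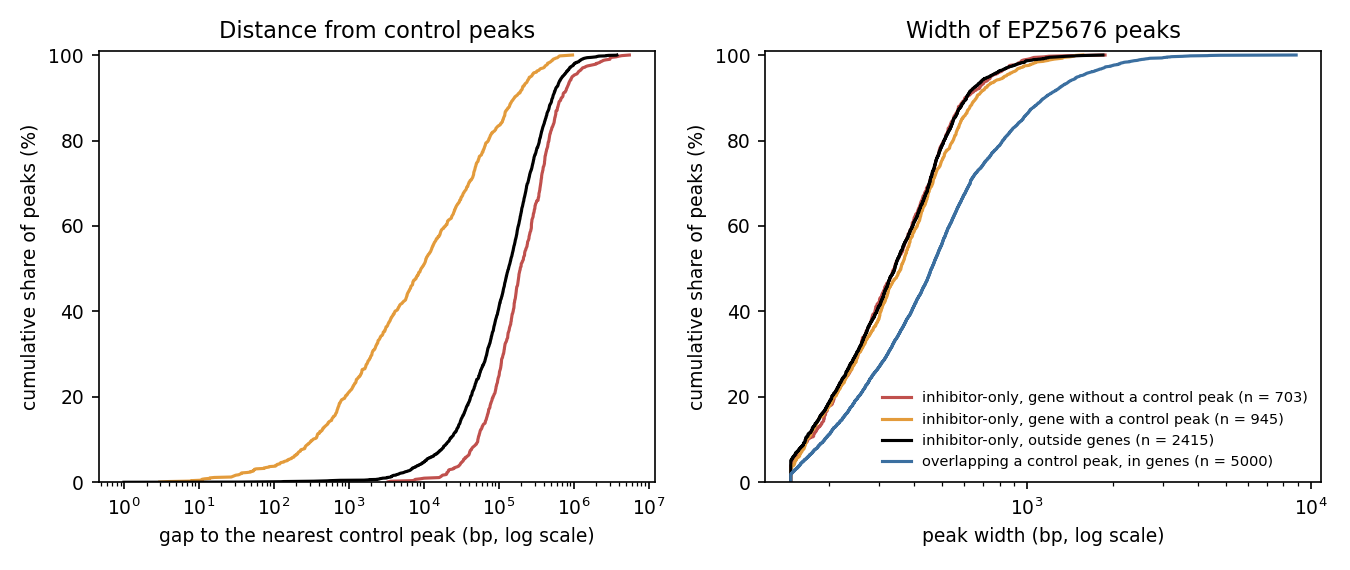
Cumulative share of EPZ5676 peaks (%) against the gap to the nearest control peak (left, bp, log scale) and against peak width (right, bp, log scale), with 1 line per class of peak. The gap lines separate the 945 peaks of genes with a control peak (median 9248 bp) from the 703 of genes without (median 193146 bp), while in width the 3 inhibitor-only lines nearly coincide and lie left of the overlapping peaks (median 460 bp).

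Of the genes that held an inhibitor-only peak, most held 1 and a minority held many. Of the 20665 autosomal protein-coding genes, 792 held at least 1, which is 3.83%. In genes without a control peak the share was 4.96% (469 of 9462) and in genes with one 2.88% (323 of 11203). These shares describe the rule's own contrast and were not tested. Of the 792, 480 held 1 peak, 312 held 2 or more, 70 held 5 or more and 18 held 10 or more. The control-marked class was the more crowded, with 58 of 323 genes at 5 or more against 12 of 469. In the 323 genes, control peaks covered a median of 5853 bp, 4.07% of the span, and inhibitor-only peaks a median of 650 bp. The inhibitor-only length was above the control length in 49 of them. An EPZ5676 peak overlapping a control peak was also present in 198 of the 323.

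Longer genes held inhibitor-only peaks more often. The median span was 112776 bp in the 469 genes and 192911 bp in the 323, against 17491 bp over all 20665 genes. Among genes without a control peak, the share holding an inhibitor-only peak was 0.955% up to 10 kb, 2.16% from 10 to 30 kb, 8.20% from 30 to 100 kb, 24.3% from 100 to 300 kb and 47.9% (interval 41.6 to 54.2%) over 300 kb. Among control-marked genes it was 0.0792%, 0.398%, 1.90%, 10.4% and 40.2% (interval 34.4 to 46.3%) in the same order. Per megabase of span not under a control peak, the density was 1.85 in genes without a control peak and 2.10 in genes with one. It showed no steady trend with length in the first class, at 2.83, 1.34, 1.87, 2.30 and 1.63 per Mb from the shortest to the longest genes. In the second class it was higher in each longer class of genes, at 0.280, 0.353, 1.01, 2.25 and 3.67 per Mb.

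**Figure D2:**
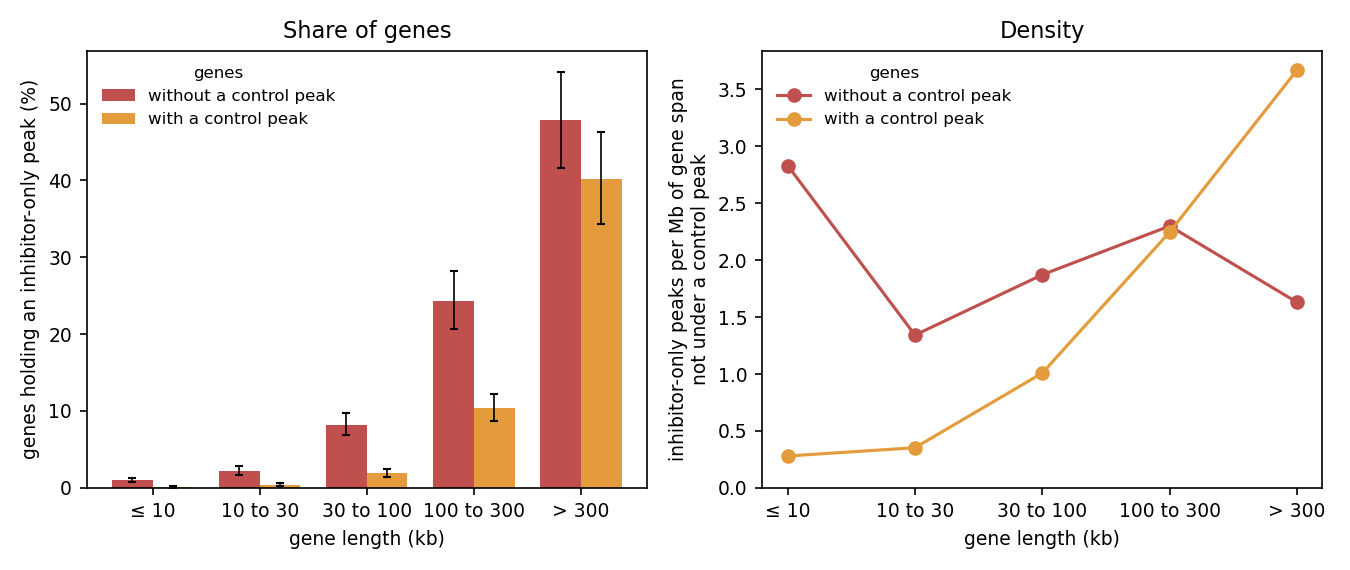
Share of autosomal protein-coding genes holding an inhibitor-only peak (left, %, bars with exact 95% intervals) and number of such peaks per Mb of gene span not under a control peak (right), by gene length in kb, for genes without and with a control peak. The share is highest over 300 kb, at 47.9% and 40.2%, whereas the density is higher at each step of length in the control-marked class alone, reaching 3.67 per Mb.

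By chromosome, from 35 to 140 inhibitor-only genic peaks were found. Per megabase covered by protein-coding genes the density ran from 0.840 on chromosome 12 to 2.72 on chromosome 3.

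Inhibitor-only peaks lay along the whole gene span, with more of them in its first part than in its last. Strand was known for 16457 of the 20665 genes, none of them on chromosome 18, which left 1243 of the 1674 pairs of gene and peak. The span was divided into 4 equal bins from its upstream end, called the gene start here, to its downstream end. The bins held 31.6%, 26.8%, 24.2% and 17.4% of the pairs. EPZ5676 peaks that overlapped a control peak had 71.3% in the first bin (interval 69.9 to 72.7%) and 2.31% in the last, and control peaks 36.9% and 11.3%. In the genes that hold an inhibitor-only peak, the overlapping EPZ5676 peaks had 48.3% in the first bin (interval 44.5 to 52.1%) and control peaks 37.6% (interval 35.8 to 39.5%). In genes without a control peak the inhibitor-only shares were 31.1%, 22.0%, 23.9% and 23.0%. In control-marked genes they were 32.0%, 30.5%, 24.5% and 13.0%, and the interval of the last bin, 10.6 to 15.7%, lies below that of the first class, 19.5 to 26.7%. The span free of control peaks was divided almost evenly between the bins of the control-marked genes, from 24.4 to 25.3%. Distances to the nearest start use starts with a promoter window, which can lie far inside the span. A Robo1 peak at 0.494% of the span, for example, lay 630444 bp from the nearest such start. The median distance to the nearest start was 49145 bp, against 7591 bp for overlapping EPZ5676 peaks and 16006 bp for control peaks over all genes. In the genes that hold an inhibitor-only peak, these were 23147 and 38266 bp. Within 5 kb of a start lay 125 inhibitor-only peaks (10.1%, interval 8.44 to 11.9%), and in the same genes 79 of 683 overlapping peaks (11.6%) and 287 of 2732 control peaks (10.5%), and the 3 intervals overlap. Over all genes the last pair was 37.3% and 33.2%. In control-marked genes, 342 of 694 inhibitor-only peaks (49.3%) lay between control peaks, 136 upstream of all of them and 216 downstream.

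**Figure D3:**
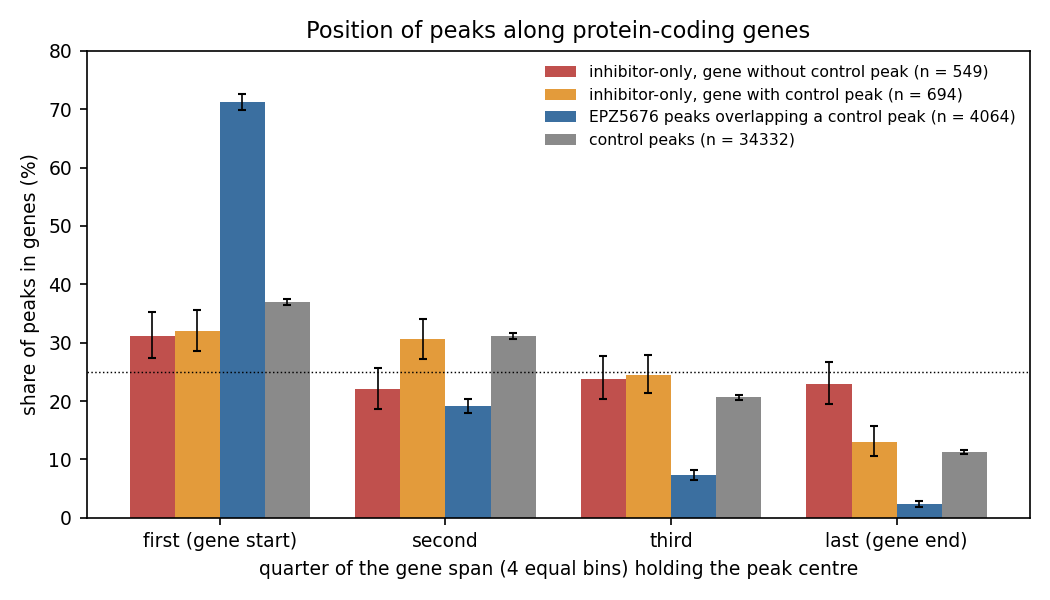
Share of peaks (%, bars with exact 95% intervals) whose centre lies in each of 4 equal bins of the gene span. The bins run from the upstream end of the span (gene start) on the left to its downstream end on the right. Bars are for inhibitor-only peaks in both gene classes, overlapping EPZ5676 peaks and control peaks. The dotted line marks an even division, 25%; over all genes, overlapping EPZ5676 peaks have 71.3% in the first bin, and inhibitor-only peaks 31.1% and 32.0%.

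Among genes without any control peak, the longest total inhibitor-only length was in Cacnb2, which encodes an auxiliary beta subunit of voltage-gated calcium channels (chr2:14603861-14988811). Its 9 peaks covered 3348 bp, were 165 to 1056 bp wide, had folds from 2.66 to 3.15, and stood between 21.5 and 300.2 kb from the gene start. The control list had no peak within 12699 bp of the gene. Lmo7, a LIM domain protein of cell adhesion and the actin cytoskeleton (chr14:101729928-101934708), held the most peaks of this class, 10, covering 2817 bp with folds from 2.62 to 3.07. Of these, 7 stood within 56.6 kb of the start and the other 3 between 164.5 and 176.9 kb. Ppargc1a, the coactivator PGC-1alpha of mitochondrial biogenesis (chr5:51454249-52115853), had 6 peaks over 2785 bp, all in the first 37.8% of its span. All 6 lay upstream of the nearest start with a promoter window, at 297918 to 476184 bp from it. Galnt18, a polypeptide N-acetylgalactosaminyltransferase family member (chr7:111471656-111780067), had 7 over 3095 bp, with folds from 2.63 to 3.04. In all 4 genes, most peaks had folds below 3, near the median of the whole set.

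Other genes without a control peak were of very different lengths. Ntf3, neurotrophin-3 (chr6:126101412-126166772), held 3 peaks of 336, 1882 and 469 bp, at 12.1, 19 and 26.9 kb from the start, with folds of 2.72, 2.98 and 2.93. The 1882 bp peak was the widest of the 1648, and the nearest control peak to the gene was 576787 bp away. Epdr1, an ependymin-related secreted protein (chr13:19591708-19619830), held 3 peaks of 1430, 324 and 398 bp at 2.26, 4.58 and 12 kb from the start, together 7.65% of its span. Their folds were 2.96, 2.71 and 2.65. Ifit1bl1 (chr19:34592888-34662981) held 5 over 2234 bp, 3.19% of a span that overlaps other genes, so these peaks are not assigned to it alone. Pappa, a metalloproteinase that cleaves insulin-like growth factor binding proteins (chr4:65124174-65357509), held 5 over 2503 bp, and Adamtsl3, an ADAMTS-like matrix protein (chr7:82335399-82614450), 3 over 2068 bp. Ntng1 and Lrrc4c encode netrin-G1 and the netrin-G1 ligand, a pair of synaptic adhesion molecules. Each held 5 peaks, over 2392 and 2038 bp. Lrmda held 8 over 2360 bp of a span of 1036590 bp.

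In control-marked genes, the inhibitor-only peaks stood among or beside peaks of the control list in different arrangements. Maml2, a Mastermind coactivator of Notch signalling (chr9:13296561-13709533), had 19 covering 10662 bp, from 1.75 to 96.5% of the span. The control list had 20 peaks there covering 19629 bp, and 11 EPZ5676 peaks overlapped them. Setbp1 (chr18:78750378-79110444), whose protein binds the SET oncoprotein, had the most of any gene, 25 over 9867 bp, beside 40 control peaks over 25665 bp and 17 overlapping EPZ5676 peaks. Mecom, which encodes the zinc finger factor EVI1 (chr3:29951296-30509759), had 18 over 8483 bp, more than the 5600 bp of its 14 control peaks. Its inhibitor-only peaks ran from 1.51 to 80.1% of the span. Ptprm, a receptor-type tyrosine phosphatase (chr17:66666848-67354491), had 16 over 7081 bp, all within the first 40.4% of the span, and 20 control peaks over 14182 bp.

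Other genes had more inhibitor-only than control length. Nfia, a nuclear factor I transcription factor (chr4:97578066-98118876), had 14 over 5762 bp against 5 control peaks over 3225 bp. Those 14 lay 952 to 197452 bp from a control peak. Adamts12, a secreted metalloproteinase (chr15:11064773-11349232), had 10 over 5302 bp against 4 control peaks over 1567 bp. Its 10 folds ran from 2.63 to 2.89, and no EPZ5676 peak in it overlapped a control peak. Kcnab1, a potassium channel beta subunit (chr3:64949212-65378225), had 11 over 5671 bp, confined to a stretch of 111594 bp in the middle of the gene and at least 142414 bp from any control peak, although the gene holds 5. Cdh13, the GPI-anchored T-cadherin, had 12 over 6325 bp beside 5819 bp of control peaks.

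Other genes showed the reverse. Dlc1, a GTPase-activating protein, had 14 over 5240 bp beside 7 control peaks over 20760 bp. Pde4d, a cAMP phosphodiesterase, had 10 over 4763 bp beside 24017 bp of control peaks. Prkg1, a cGMP-dependent kinase whose span overlaps another gene, had 13 over 5225 bp beside 7110 bp, and Cpe, carboxypeptidase E, 9 over 4863 bp beside 6056 bp. In Pde4d they lay between 63.0 and 91.7% of the span.

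**Figure D4:**
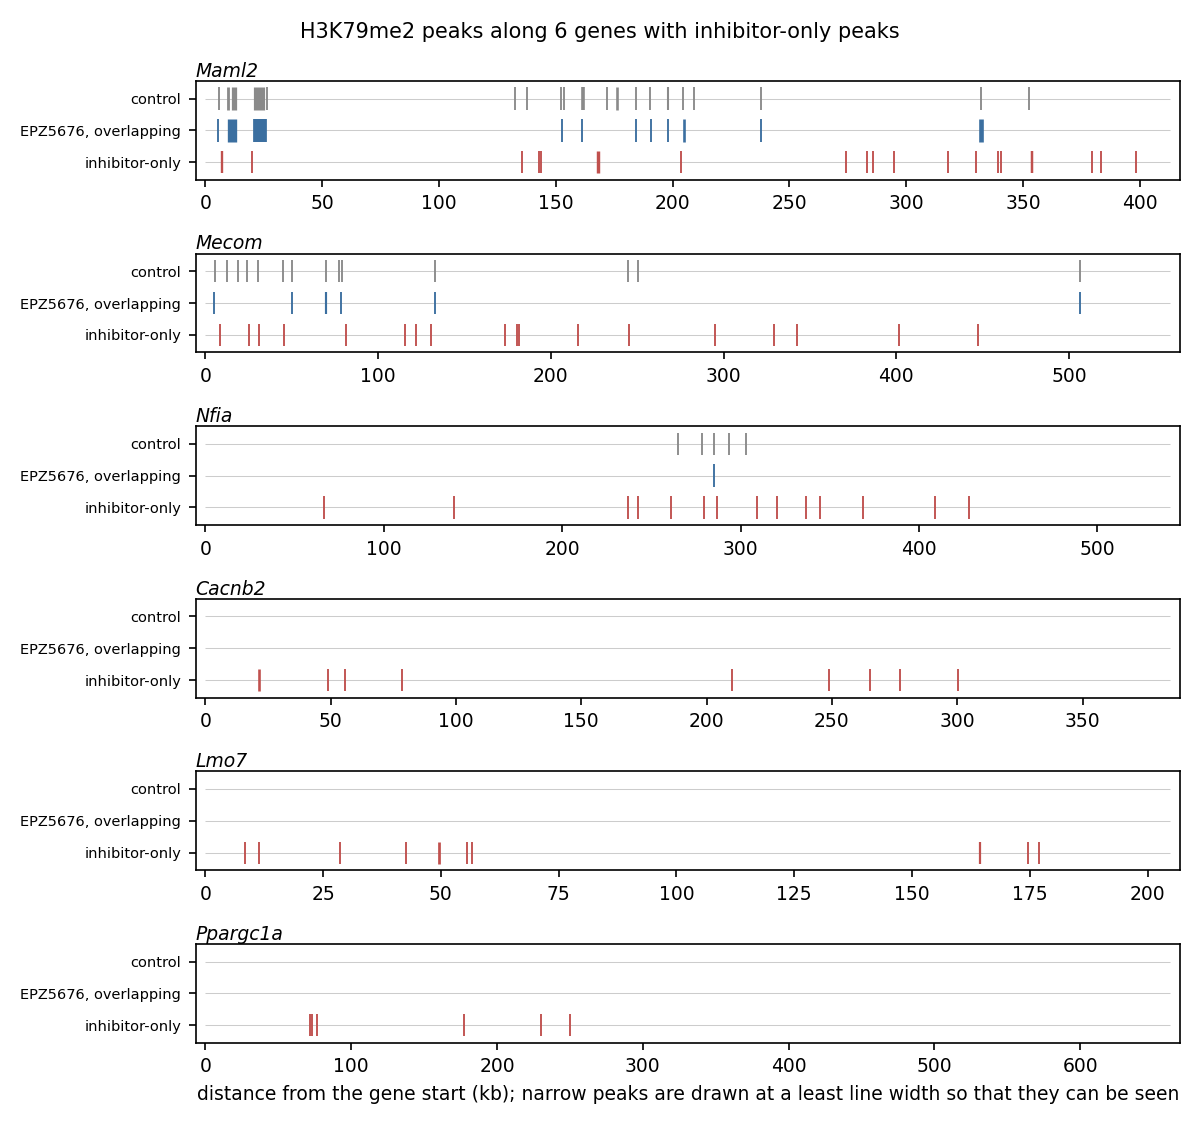
Peaks along 6 genes as distance in kb from the gene start, here the upstream end of the span. Control peaks are in grey, EPZ5676 peaks overlapping a control peak in blue and inhibitor-only peaks in red. Maml2, Mecom and Nfia have 20, 14 and 5 control peaks and 19, 18 and 14 inhibitor-only ones; Cacnb2, Lmo7 and Ppargc1a have 9, 10 and 6 inhibitor-only peaks and no other.

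The 5 peaks of highest fold in each gene class were mostly narrower than the median of 350 bp. In genes without a control peak they were in Me3 (malic enzyme, 147 bp, fold 3.43), Kcnh1 (a potassium channel, 571 bp, 3.42), Hdac9 (a histone deacetylase, 167 bp, 3.39), Ddo (D-aspartate oxidase, 150 bp, 3.35) and Rims2 (a presynaptic protein, 198 bp, 3.27). In control-marked genes the highest was 3.77, in a 178 bp peak that lies in Macrod2 and also in Flrt3. A 227 bp peak in Gm6034 and Gm11127 had 3.66, and peaks in Nr3c1, the glucocorticoid receptor, Runx1t1 and Tenm3 had 3.36, 3.32 and 3.31. The widest in control-marked genes were 1571 bp in Btbd11, 1475 bp in Maml2, 1465 bp in Mcub and 1448 bp in Fat4, with folds between 2.73 and 2.80.

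Gene lists are given as counts beside 3.83% of all genes, with no test. Lists of long genes had the highest shares. Of 32 synaptic adhesion and other long neuronal genes, 20 held an inhibitor-only peak, 15 of them without a control peak, and their median length was 1221159.5 bp. Per megabase the list had 1.19, below the 1.99 of all genes. Lrrc4c, Magi2, Dlg2 and Tenm3 led it with 5, 6, 5 and 4 peaks. The glutamate and GABA receptors had 8 of 28, none of the 8 with a control peak, at 0.990 per Mb. These included Gabrg3 and Grin2b with 2 peaks each and Gabrb1 with 1. Voltage-gated channels had 10 of 31, at 2.96 per Mb.

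Lists of guidance, adhesion and signalling genes had higher densities than the 1.99 per Mb of all genes. In several lists a few genes held many of the peaks. The lists named here had median gene lengths from 23176 bp (cell death) to 231414 bp (axon guidance), against 17491 bp over all genes. Of all genes of 100 to 300 kb, 14.4% held an inhibitor-only peak. Axon guidance genes had 16 of 33, at 4.32 per Mb, 11 of them with a control peak, led by the ephrin Efna5 and the semaphorin receptor Nrp1 with 5 peaks each and by Plxna2 with 7. Cadherins had 9 of 27, at 4.36 per Mb, among them Cdh13, Fat4 and Cdh11 with 12, 6 and 6. Receptor tyrosine kinases had 5 of 32, with 17 peaks in all: Egfr with 8, Fgfr2 with 3, and Ddr2, Ror1 and Alk with 2 each. Actin and focal adhesion genes had 4 of 34, of which Lmo7 and Cald1 (caldesmon) held 10 and 8 of the list's 21 peaks. The TGF-beta and BMP pathway had 5 of 30, with 4 peaks each in the receptor Bmpr1b and the ligand Tgfb2 and 1 each in Acvr1c, Smad9 and the ligand Bmp4. The Bmp4 peak was 206 bp wide with a fold of 3.26. The Wnt pathway had 5 of 37, including Tcf7l1 with 2, and the Notch pathway 1 of 18, Maml2. Its 19 peaks give the list its 16.7 per Mb. Energy regulators had 2 of 15, Ppargc1a and Pparg. Adipocyte and muscle regulators had 4 of 18, Ebf1 with 12 of 17 peaks, Pparg with 3 and Zfp423 and Mef2c with 1 each. Cell death genes had 1 of 20, Bcl2.

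The germline lists held 0 to 2 genes with an inhibitor-only peak each, and no difference from 3.83% was tested. For the control peaks of these lists, the share over all genes was 54.2%. Undifferentiated spermatogonia genes had 1 of 25, a peak of 1039 bp in Shisa6 (fold 2.68), and 19 of the 25 had a control peak. Spermatogonial differentiation genes had 2 of 12 (16.7%), the retinoic acid receptor Rarb and Prdm1. Meiosis genes had 0 of 17 and post-meiotic sperm genes 1 of 17, the sperm tail gene Odf1. In the order named, these lists had 1.06, 3.03, 0 and 0.945 peaks per Mb, against 1.99 over all genes. The cytosolic ribosomal protein genes, of which 45 of 45 had a control peak, had 0, and their median length was 3352 bp. DOT1L and the super elongation complex had 0 of 14, although 13 had a control peak and 8 an EPZ5676 peak of any kind. The share of all genes with an EPZ5676 peak of any kind was not counted.

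Markers of cell types that the culture could hold were counted in the same way. Of all autosomal protein-coding genes, 54.2% had a control peak. The share of all genes with an EPZ5676 peak of any kind was not counted. Of 16 spermatogonial markers, 16 had a control peak, 2 an EPZ5676 peak and 0 an inhibitor-only peak. Of 18 fibroblast markers, 10 had a control peak, 6 an EPZ5676 peak and 3 an inhibitor-only one (Twist2 and Tnc with 2 peaks each, Fbn1 with 1). The longer list of 26 fibroblast and mesenchymal genes had 7 with an inhibitor-only peak, at 11.0 per Mb, against 1.99 over all genes. The other 4 were Cd44, Col5a2, Col6a3 and Tbx15, and 6 of the 7 also had a control peak. Of 12 testis somatic markers, 2 had a control peak and 1, Fshr, an inhibitor-only one. With no all-gene share beside them, the EPZ5676 counts give no background, so no difference between these marker lists is drawn from them. The part that feeder cells play in the inhibitor-only peaks was not tested.

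**Figure D5:**
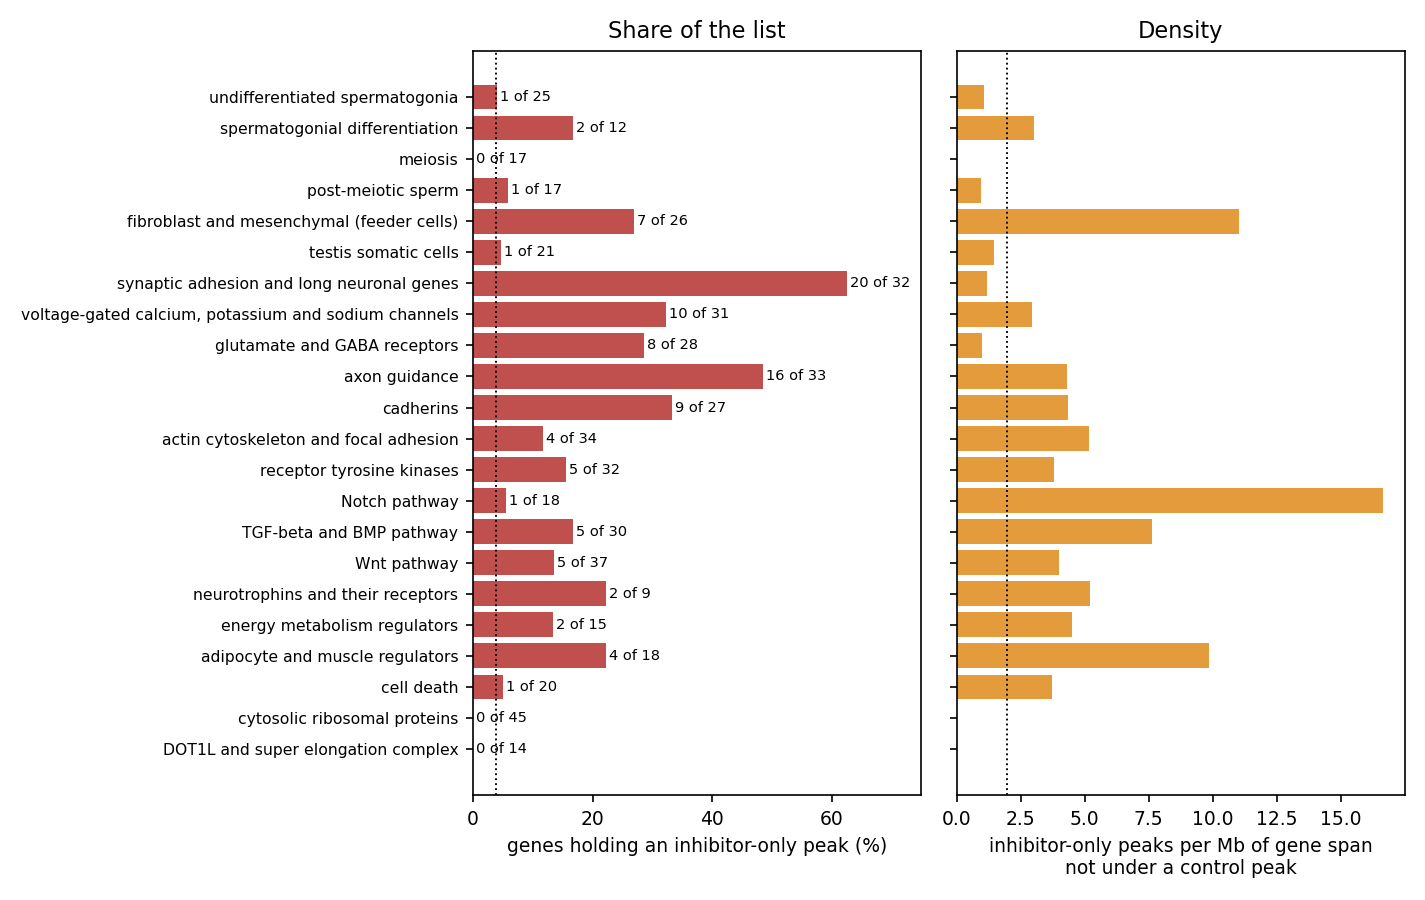
Share of each of the 22 gene lists holding an inhibitor-only peak (left, %, with counts) and inhibitor-only peaks per Mb of gene span not under a control peak (right), with dotted lines at 3.83% and 1.99 per Mb for all autosomal protein-coding genes. Synaptic and long neuronal genes have the highest share among these 22, 20 of 32, but 1.19 per Mb; the Notch list has the highest density among them, from the 19 peaks of Maml2.

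The number of inhibitor-only genic peaks depended on the thresholds of both lists. Control peaks reached down to a −log10 p of 2.36 and EPZ5676 peaks to 4.03. In −log10 q the 2 lists ended at nearly the same value, 1.05 for control and 1.04 for EPZ5676. With control peaks below 4.03 left out the number was 2592, with EPZ5676 peaks held to a −log10 q of at least 2 it was 97, and with peaks of at least 500 bp it was 384.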

How the data were processed

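H3K79me2 peaks of 1 control and 1 EPZ5676 list were used, each recorded under replicate 1 of its group. The submitters' processing notes name deepTools, Trimmomatic and bcl2fastq 2.20.0.422, and the mm10 build. The aligner, the peak caller, any pooling of replicates and the use of inputs were not given in the sources used here. The authors deposited, for each peak, a score, a fold enrichment (a linear ratio), a −log10 p-value and a −log10 q-value; these describe or filter peaks within a list. Read depth is unknown.

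Overlap meant at least 1 shared bp, computed with Python 3.11.15, pandas 2.3.3 and scipy 1.17.1, and overlap counting was tested on simulated data. Gene spans, strands and promoter windows came from RefSeq GRCm38.p6, the assembly mm10 names; no exon annotation was used. No test was made. The peaks and the 22 gene lists were chosen with earlier results of these data known. Named genes were the 12 with the longest inhibitor-only length in each class, the 5 with most peaks, the 5 highest-fold and 5 widest peaks per class, up to 4 genes per list by inhibitor-only length, and promoters overlapped; the peaks nearest to starts, those at the edge of the rule, and further list members were named after their values were seen. Some list members are not reported here. Alternatives changed the overlap, the thresholds, the width and the genes used. There were 0 unmapped columns of sample values.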

Additional observations from a re-analysis of the deposited data

How the results depend on the processing

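Of 48 recomputed values, 26 stayed within the sampling interval of the value given in the report, or within 1.5 times for counts, and 22 moved. When control peaks closer than 1000 bp counted as overlapping, the share of peak-holding genes with a control peak was 37.3% (40.8% as reported) and the median gap to a control peak 88268 bp; at 5000 bp these were 31.8% and 117127 bp. With 50% of the peak required under control peaks, the median width was 369 bp and the gap 41085.5 bp. At a −log10 q of at least 2, there were 97 peaks in 91 genes, 53.8% of them with a control peak, with a median width of 211 bp and a fold of 3.11. With the control list held to the lowest −log10 p of the EPZ5676 list, there were 2592 peaks, and the values were 27.8%, 392 bp, a fold of 2.75 and a gap of 99554.5 bp. At a width of at least 500 bp, there were 384 peaks in 265 genes, and the values were 51.3%, 618 bp, 2.75 and 45475.5 bp. Some of these shifts are set by the filter itself. A least width of 500 bp raises the median width, and counting nearby control peaks as overlapping removes the smallest gaps. The cause of the other shifts was not tested. Requiring the whole peak inside a gene, or only genes that overlap no other, moved none of the 6 values. No paired analysis was possible because each condition has 1 peak list; for the same reason no replicate could be left out. Without read depth, a peak missing from the control list cannot be told apart from one just below its threshold, and a gene without a control peak is not shown to lack the mark.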

Other observations

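Some gene families were counted after values were seen, so the counts describe these lists and support nothing further. Over all genes the share was 3.83% and the density 1.99 per Mb. By length, the share was 3.85% for all genes of 30 to 100 kb and 14.4% for those of 100 to 300 kb. Of 24 Adamts and Adamtsl genes, which encode extracellular metalloproteinases and related matrix proteins, 7 held an inhibitor-only peak (29.2%, 6.50 per Mb), 5 of them without a control peak. Adamts12 held 10, Adamtsl1 4, Adamtsl3 and Adamts5 3 each, and Adamts2, Adamts9 and Adamts15 1 each. Of 42 collagen genes, 7 did (16.7%, 3.20 per Mb), led by Col8a1 with 7 peaks beside 1 control peak. Of 26 cyclic nucleotide phosphodiesterase genes, 7 did (26.9%, 5.27 per Mb), 6 of them with a control peak. Pde4d led with 10, then Pde7b with 6 and Pde8b with 5. The median gene length was 95178 bp in the Adamts and Adamtsl list, 110432 bp in the collagens and 106205 bp in the phosphodiesterases.

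Among short genes, a list of 13 made for the interferon-induced Ifit genes had 4 that held one. That is 30.8% of the list, at 39.7 per Mb of a span of 0.201 Mb not under control peaks. The 4 were Ifit1bl1 with 5 and Ifit2, Ifit3b and Ifit1bl2 with 1 each. The other genes of the list are not named here, so 13 is not given as a count of that family. The Ifit3b and Ifit1bl2 peaks are also counted in Ifit1bl1, whose span overlaps theirs. Of 1104 olfactory receptor genes, with a median span of 950 bp, 11 held one (0.996%, 5.18 per Mb). Among all genes without a control peak up to 10 kb, these were 0.955% and 2.83 per Mb. A peak counts when 1 base touches the span, so in spans this short the peak's own width raises the density. None of the 1104 had a control peak, against 54.2% of all genes with one. The Olfr6 peak was 771 bp wide in a span of 951 bp. Of 354 vomeronasal receptor genes, 1 did, Vmn2r62.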
